A study of Caenorhabditis elegans with 2 samples.

Results

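The genes described are 38 members of the basic helix-loop-helix (bHLH) family of Caenorhabditis elegans, chosen by family name, with no measured value in the rule, out of 19973 protein-coding genes annotated on 6 nuclear chromosomes. The muscle factor gene hlh-1 and the mesoderm gene hlh-8 were set apart, and hnd-1 was not in the list. All 38 symbols matched a protein-coding gene of the annotation. The data were HLH-1 binding sites from chromatin immunoprecipitation with sequencing (ChIP-seq) in whole embryos of mixed stages and both sexes. There was 1 group of 2 biological replicates and no second condition. Both replicates were of strain OP64, in which the allele unc-119(ed3) and the insertion wgIs64 are carried and HLH-1 is fused to eGFP. Binding was thus averaged over every cell of the embryos that makes the fusion, and the labels do not say whether untagged HLH-1 is made as well. Signal cannot be assigned to a cell type.

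bHLH proteins bind DNA as dimers, through a basic region that in many of them reads the E-box, a site of the form CANNTG. The family divides the work of development by class. E proteins are shared partners, achaete-scute, atonal and neurogenin relatives specify nerve cells, and HES relatives act as repressors, often as targets of Notch signalling. Myc, Max, Mad and Mlx relatives and the TFEB and SREBP factors control growth and metabolism, and PAS-domain members respond to oxygen and other signals. HLH-1 is the worm's MyoD relative and acts in body wall muscle. The question put to the data is which of the other family genes have HLH-1 at their starts.

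A gene was called bound when a peak had its summit in a window that reaches 2000 bp upstream and 500 bp downstream of the start, the most 5′ annotated base. Peaks came from the authors' list past the irreproducible discovery rate threshold, called the IDR list here. It held 3254 peaks on ce11, with scores from 32.5 to 964.9 (median 55.7). The score is the authors' own, its scale is not stated, and it was used only within a list. A longer, relaxed list that includes background was deposited for the pooled data (25320 peaks on the nuclear chromosomes), for replicate 1 (28959) and for replicate 2 (29975). Replicate lists are compared below by rank, where rank 1 is the highest score. The number of reads behind the lists is unknown here, and so is the precision of a score.

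Of the 38 bHLH genes 4 were bound, hif-1, mml-1, mdl-1 and hlh-11. This is 10.5%, beside 12.8% of all protein-coding genes, so that the share lay near the background. The hypoxia factor gene hif-1 is of the PAS class, mml-1 and mdl-1 are of the Myc, Max, Mad and Mlx group, and hlh-11 is the AP-4 relative. Together their windows held 6 summits. All 6 were intergenic and upstream of the start. Over all pairs of a bound gene and a summit 92.9% were upstream, and 73.3% of the distinct summits were intergenic. With 6 summits at 4 genes, and a window that reaches farther upstream, no difference from these shares is read. For each of the 6 summits the bHLH gene was also the nearest protein-coding start. Counting only such nearest starts left 4 members, beside 8.83% of all protein-coding genes.

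The bases up to 50 bp on either side of each of the 6 summits are given first, since the values that follow refer to them. Each is read 5′ to 3′ on the strand of the bHLH gene, from RefSeq's WBcel235 sequence (the ce11 build), with every CANNTG in capitals and the summit at base 51.
hif-1, 223 bp upstream (chrV:20780134-20780234, + strand): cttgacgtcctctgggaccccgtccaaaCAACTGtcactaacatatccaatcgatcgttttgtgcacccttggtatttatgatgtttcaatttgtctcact
hif-1, 1971 bp upstream (chrV:20778386-20778486, + strand): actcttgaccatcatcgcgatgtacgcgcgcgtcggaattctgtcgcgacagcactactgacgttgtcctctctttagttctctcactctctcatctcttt
mml-1, 347 bp upstream (chrIII:7375028-7375128, - strand): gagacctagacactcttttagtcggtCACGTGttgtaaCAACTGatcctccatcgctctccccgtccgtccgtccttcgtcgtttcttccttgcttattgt
mml-1, 1724 bp upstream (chrIII:7376405-7376505, - strand): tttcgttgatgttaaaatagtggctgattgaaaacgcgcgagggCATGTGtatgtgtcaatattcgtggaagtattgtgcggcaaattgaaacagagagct
mdl-1, 170 bp upstream (chrX:6742131-6742231, + strand): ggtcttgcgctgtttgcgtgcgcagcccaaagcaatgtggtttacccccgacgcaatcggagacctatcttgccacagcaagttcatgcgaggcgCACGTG
hlh-11, 295 bp upstream (chrIII:9619366-9619466, + strand): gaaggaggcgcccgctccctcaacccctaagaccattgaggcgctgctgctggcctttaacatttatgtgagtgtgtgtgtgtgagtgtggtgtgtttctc

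E-boxes were present in 4 of these 6 windows, beside 63.4% of all IDR summit windows with any CANNTG. The E-box CAACTG, in 18% of all IDR summit windows, lay near the start of hif-1 and in the nearer window of mml-1. Its centre was 19.5 bp from the summit at hif-1 (20780162 to 20780167) and 9.5 bp from it at mml-1 (7375085 to 7375090). The palindrome CACGTG, the form read by Myc and Max relatives, was in 2.95% of all IDR summit windows. Here it was found beside CAACTG at mml-1 (7375097 to 7375102) and at the end of the mdl-1 window (6742226 to 6742231). The distal mml-1 window held CATGTG, which is CACATG on the other strand (7376456 to 7376461, 3.5 bp from the summit). The hexamer CAGCTG, in 15.2% of all windows, was in none of the 6. With CACCTG, which was in 9.43% of all windows and in none of the 6, CAACTG and CAGCTG make the 3 hexamers searched as HLH-1 E-boxes, on both strands. At least 1 of the 3 was in 2 of the 6 windows, beside 38.8% of all IDR summit windows. These counts describe letters in short windows and were not tested.

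The strongest sites in the family lay at hif-1, which encodes the hypoxia-inducible factor that turns on genes when oxygen is low (WBGene00001851, chromosome V, 20780407 to 20785260, + strand). Its proximal peak (20780118 to 20780193, summit 20780184) had a score of 97.6 and rank 582 in the IDR list. The distal peak (20778288 to 20778583, summit 20778436) had a score of 92.7 and rank 641. Both summits were in intergenic sequence and 1748 bp apart. The proximal site ranked 587 in replicate 1 (score 13.9) and 542 in replicate 2 (score 88.8). For the distal site the ranks were 720 (score 12.6) and 699 (score 78.7). Replicate summits lay 21 and 4 bp from the proximal IDR summit, and 58 and 8 bp from the distal one. The ranks of hif-1 were therefore alike in both replicates, and among the 38 genes it was the only one with a peak in the window among the 1000 strongest of the IDR list. Having more than 1 summit in the window was seen for 7.79% of all bound genes, and here for hif-1 and mml-1. With 4 bound genes such a count is too small to be read against that share. The distal summits lay 1971 bp upstream at hif-1 and 1724 bp upstream at mml-1.

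The next gene, mml-1, encodes a Myc and Mondo relative that pairs with MXL-2 (WBGene00003378, chromosome III, 7370130 to 7374731, - strand). Its proximal peak (7374930 to 7375225, summit 7375078) had a score of 53.3 and rank 1762. The distal peak (7376307 to 7376602, summit 7376455) had a score of 39.0 and rank 2651. The replicates differed here. The proximal site ranked 1675 in replicate 2 (score 49.0) and 8711 in replicate 1 (score 4.68), and the distal site 2029 (score 43.0) and 7378 (score 5.02). Both were among the 3254 strongest peaks of replicate 2, and neither was among those of replicate 1.

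The Mad relative gene mdl-1, whose product pairs with MXL-1 (WBGene00003163, chromosome X, 6742351 to 6743899, + strand), had 1 summit in the window (6742181, peak 6742033 to 6742328, score 40.5, rank 2536). It ranked 2719 in replicate 2 (score 34) and 13283 in replicate 1 (score 3.86), where the overlapping peak had its summit 139 bp away. As at mml-1, the site was among the 3254 strongest peaks of replicate 2 and not of replicate 1. Another 2 summits lay within 5000 bp of the mdl-1 start. One was 4571 bp upstream (6737780, score 51.3), where the nearest start is that of R03E9.2. The other was 1700 bp downstream of the start, past the end of the gene and in an exon of the non-coding gene R03E9.10 (6744051, score 53.0). Both scored above the promoter peak.

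The AP-4 relative gene hlh-11 (WBGene00001955, chromosome III, 9619711 to 9626529, + strand) had a summit at 9619416 (peak 9619268 to 9619563, score 41.6, rank 2458). This peak was overlapped by one that ranked 1951 in replicate 1 (score 8.19) and by one that ranked 3155 in replicate 2 (score 29.9). The summit was the same base in replicate 2 and 137 bp nearer to the gene in replicate 1. Of the 6 sites at bound genes 3, those of hif-1 and hlh-11, overlapped a peak among the 3254 strongest of both replicates. Over the whole IDR list this share was 48.2%.

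**Figure D1:**
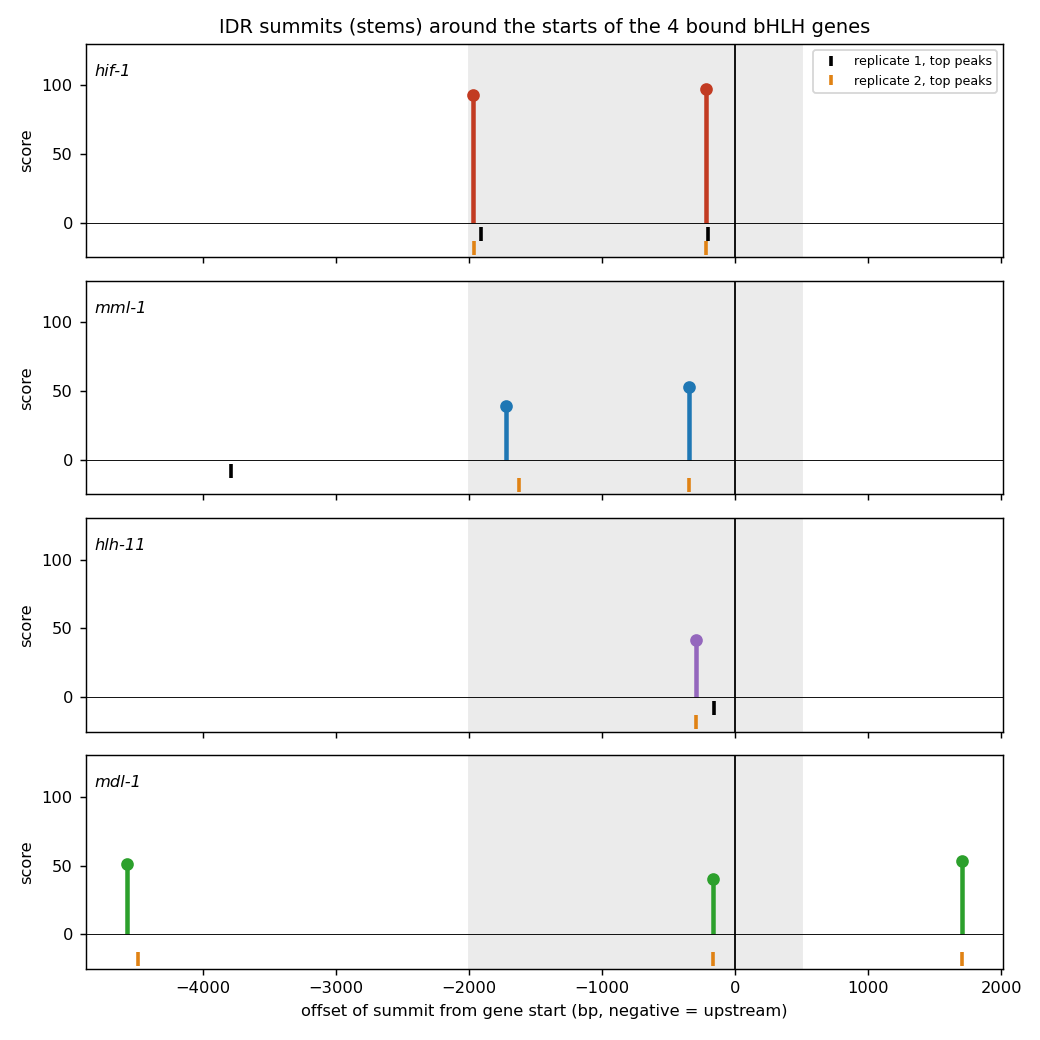
Summits of the IDR list around the starts of the 4 bound genes, with the offset from the start in bp on the x axis and the authors' score on the y axis; grey marks the window of the bound call, and ticks below 0 mark summits among the 3254 strongest of replicate 1 (black) and replicate 2 (orange). Both replicates have ticks at hif-1 and hlh-11, and replicate 2 alone has them at mml-1 and mdl-1 within the window.

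**Figure D2:**
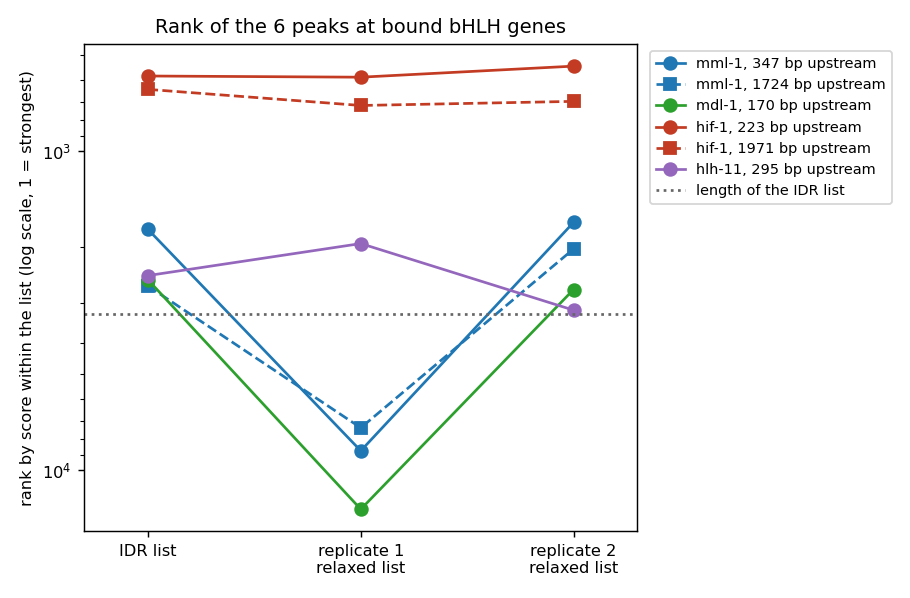
Rank by score (log scale, 1 is strongest) of the 6 peaks at bound genes in the IDR list and in the relaxed list of each replicate; the dotted line is at 3254. The 2 hif-1 peaks stay between ranks 542 and 720 in all lists, whereas the peaks of mml-1 and mdl-1 drop to between 7378 and 13283 in replicate 1.

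With either replicate alone the set of bound genes changed in part. The 3254 strongest peaks of replicate 2 gave the same 4 genes, beside 12.9% of all protein-coding genes. Those of replicate 1 gave 3 (7.89% of the members, beside 10.1%), which were hif-1, hlh-11 and hlh-19. At hlh-19, grouped here with the achaete-scute relatives (chromosome X, 555792 to 557295, - strand), replicate 1 had a summit 150 bp upstream that ranked 1788 (score 8.48). Its strongest counterpart in the window in replicate 2 lay 59 bp downstream and ranked 13427 (score 9.19). The pooled relaxed list had a peak 43 bp downstream with a score of 11.6, and the gene was not bound in the IDR list.

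The other 34 genes had no summit in the window. At the edge of the window were hif-1, with its distal summit 1971 bp upstream, and hlh-13, with a summit 2081 bp upstream (chromosome X, 4247168, score 50.2, rank 1938). The summit near hlh-13 is in the 5′ UTR of F48D6.4 and 44 bp from that gene's start. A second, 2827 bp upstream of hlh-13, scored 43.9. The nearer one lay 6.5 bp from the centre of a CAGGTG, which is CACCTG on the other strand. By the scores, the weakest of the strongest peaks at bound genes was that of mdl-1, at 40.5. Among the unbound genes the highest scores in the pooled relaxed list were at aha-1 (26, rank 4174) and hlh-2 (25.9, rank 4193). The lowest score of the IDR list, with its 3254 peaks, was 32.5.

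Over all 38 genes the nearest summit was 170 to 86161 bp away, with a median of 9758.5 bp, beside 13491 bp over all protein-coding genes. It was within 5000 bp for 14 genes (36.8%, beside 26% of protein-coding genes) and beyond 20000 bp for 11 (28.9%, beside 37.8%). These shares were not tested. The share of all unbound protein-coding genes whose nearest summit was closer to another start was not computed. The next count is thus no trait of the family. For 31 of the 34 unbound genes the nearest summit was closer to the start of another protein-coding gene. The exceptions were hlh-30, lin-32 and ref-1, which were themselves the nearest protein-coding start to a summit, although at lin-32 a tRNA gene was closer. With them 7 of the 38 genes were the nearest protein-coding start to a summit at any distance, beside 13% of protein-coding genes, by a rule added after the data were seen.

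**Figure D3:**
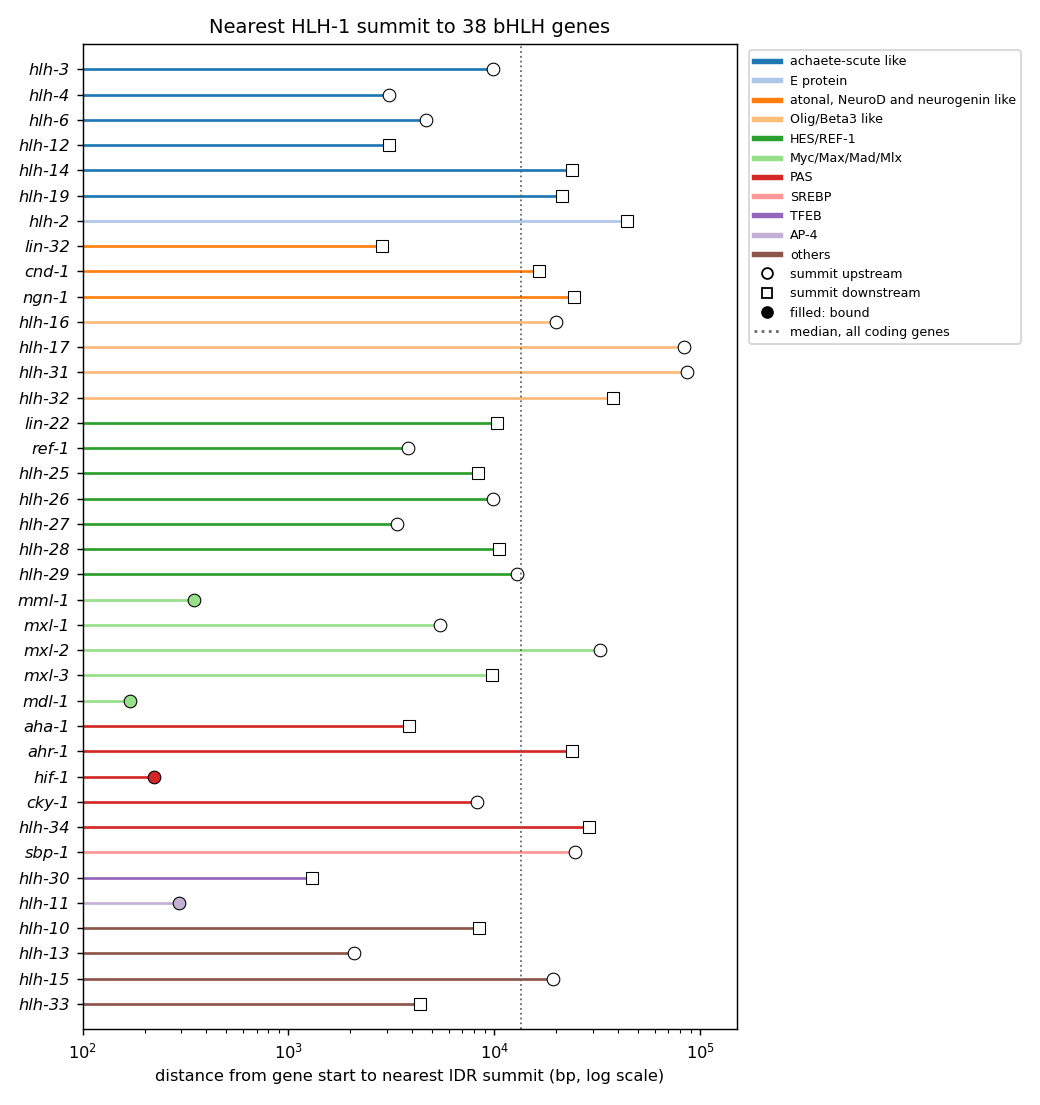
Distance in bp (log scale) from the start of each of the 38 genes to the nearest summit of the IDR list, by class (colours); circles are summits upstream, squares downstream, filled symbols bound genes, and the dotted line is the median of 13491 bp over all protein-coding genes. The 4 bound genes lie between 170 and 347 bp, and hlh-17 and hlh-31 are the farthest, at 83295 and 86161 bp.

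The summits beside hlh-30, lin-32 and ref-1 are given for comparison with those of the bound genes, in the same manner.
hlh-30, 1303 bp downstream (chrIV:4033598-4033698, - strand): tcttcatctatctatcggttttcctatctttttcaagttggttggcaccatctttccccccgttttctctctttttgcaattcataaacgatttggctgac
lin-32, 2855 bp downstream (chrX:2227217-2227317, - strand): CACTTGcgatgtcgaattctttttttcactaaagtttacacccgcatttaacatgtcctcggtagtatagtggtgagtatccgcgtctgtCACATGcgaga
ref-1, 3818 bp upstream (chrII:10214603-10214703, + strand): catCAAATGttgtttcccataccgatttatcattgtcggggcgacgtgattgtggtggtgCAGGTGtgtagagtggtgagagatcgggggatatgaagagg

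The gene hlh-30 encodes the worm's TFEB relative, a regulator of autophagy and lysosomes (chromosome IV, 4014793 to 4034951, - strand). Its nearest summit (4033648, score 35.8, rank 2910) lay in an intron of hlh-30 itself. The site ranked 2266 in replicate 1 (score 7.76) and 2793 in replicate 2 (score 33.2), among the 3254 strongest of both. The nearest annotated transcript start of the gene was 1136 bp upstream of the summit, which is outside the window of that start. The gene became bound when the window was extended to the gene end or opened at any annotated transcript start. The latter call thus came through another start of the gene, which is not given here. No E-box was present in the printed bases.

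The atonal relative lin-32, needed for touch and ray neurons, had summits on both sides (chromosome X, 2229055 to 2230122, - strand). The summit 2855 bp downstream of the start (2227267, score 42.1, rank 2424) was past the end of the gene and 5 bp from a tRNA gene (2227191 to 2227262), to which most of the bases after the summit in the printed window belong. It was among the 3254 strongest of both replicates, at rank 3163 in replicate 1 and 2515 in replicate 2. The summit 4008 bp upstream (2234130, score 62.7) was 194 bp from the start of T14F9.2. No relaxed peak of any list fell in the window of lin-32. At ref-1 (chromosome II, 10218471 to 10220022, + strand), the gene that gives the REF-1 family its name, the summit 3818 bp upstream was intergenic (10214653, score 41.6, rank 2464). It ranked 2621 in replicate 2 (score 35.2) and 6257 in replicate 1 (score 5.33). Its window held CAAATG and CAGGTG.

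None of the 6 achaete-scute relatives and of the 3 atonal, NeuroD and neurogenin relatives was bound in the IDR list, beside 12.8% of all protein-coding genes, and classes of this size are too small for a count of 0 to be read against that share. With replicate 1 alone hlh-19 was called, as given above. Among the achaete-scute relatives the nearest summits were 3062 bp from hlh-4, a gene of the ADL sensory neuron, and 3062 bp from hlh-12, which acts in distal tip cell migration. The hlh-4 summit was strong (score 156.2, rank 178), but lay in an intron of T05G5.1 and 1223 bp from that gene's start. The hlh-12 summit (score 89.7) was nearer to spp-10, at 796 bp. The pharyngeal gland gene hlh-6 had its nearest summit 4680 bp upstream (score 74.3), in an intron of dnj-20. Farther away were the summits nearest to hlh-3 (9880 bp), a gene of HSN motor neurons, hlh-19 (21353 bp) and hlh-14 (23864 bp), which acts in neuroblast division. The NeuroD relative cnd-1 had its nearest summit 16484 bp away, at atp-2, and the neurogenin gene ngn-1 had it 24378 bp away, in an intron of epg-9.

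The E protein gene hlh-2, whose product is the shared partner of many tissue-specific bHLH factors, was not bound, and its nearest summit was 44220 bp away (score 292.6, rank 20) and 2122 bp from the start of hpo-11. In the pooled relaxed list a peak 1122 bp upstream of the hlh-2 start ranked 4193 (score 25.9). It was matched in replicate 2 by a peak 1113 bp upstream that ranked 3588 (score 26.5). Replicate 1 had no peak in the window. The lowest score of the IDR list was 32.5.

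By class median, the Olig and Beta3 relatives were the farthest from a summit, at 60393 bp over 4 genes. The glial gene hlh-17 and its neighbour hlh-31 lay 83295 and 86161 bp from a summit beside gln-3 on chromosome IV (score 67.8), and hlh-32 lay 37491 bp from another in a gln-3 intron (score 93.7). For hlh-16, on chromosome I, the distance was 19827 bp, shorter than for hlh-2 or mxl-2. The class median thus reflects hlh-17, hlh-31 and hlh-32, which all lie on chromosome IV (16132464 to 16259534). The gln-3 summits lie between hlh-32 and the neighbours hlh-17 and hlh-31.

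None of 7 genes of the HES and REF-1 class was bound, beside 12.8% of all protein-coding genes. This class too is too small for a count of 0 to be read against that share. The nearest summits of its genes were 3351 to 12914 bp away. The neighbours hlh-25, hlh-26 and hlh-27 on chromosome II shared 1 nearest summit (score 76.7), which lay 1300 bp from ins-13 and 8325, 9822 and 3351 bp from their own starts. On chromosome X hlh-28 and hlh-29 also shared 1 (score 41.1), in an intron of F31A3.5 and 10498 and 12914 bp away. The repressor gene lin-22, which keeps epidermal cells from becoming nerve cells, had its nearest summit 10351 bp downstream, beside ndnf-1. In the windows of hlh-25, hlh-26 and hlh-27 between 25.5% and 25.8% of all 32 bp words occurred more than once in the genome, and in those of hlh-28 and hlh-29 59.8% did. The median was 0 over the 38 genes and 0.202% over all protein-coding genes. Above 20% were 5 of the 38 windows, beside 9.91% of those of all protein-coding genes. Reads from repeated words may not be placed on 1 copy. The part of this in the absence of IDR summits at hlh-25 to hlh-29 was not tested. The windows of the 4 bound genes held at most 0.729% of repeated words. A weak pooled relaxed summit (score 8.43, rank 22389) lay in the windows of hlh-28 and hlh-29. No relaxed summit of any list lay in those of hlh-25, hlh-26 and hlh-27.

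In the Myc, Max, Mad and Mlx group 2 of 5 genes were bound, mml-1 and mdl-1, beside 12.8% of all protein-coding genes. A group of this size is too small for its count to be read against that share. The partner genes of mml-1 and mdl-1 were not bound. The nearest summit to mxl-1 was 5453 bp upstream (score 54.3) and 55 bp from the start of dvc-1. That nearest to mxl-2 was 32453 bp away, in an intron of klp-20, and that nearest to mxl-3, a regulator of lipid breakdown, was 9695 bp away, in an intron of ptr-24. In the relaxed lists mxl-1 had a pooled peak 55 bp downstream of the start (score 11.6, rank 13301), mxl-2 had 1 peak in replicate 2 (rank 18579) and mxl-3 had pooled peaks of at most 8.68.

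Of the 5 PAS genes 1 was bound, hif-1, beside 12.8% of all protein-coding genes. This class too is too small for its count to be read against that share. The partner gene of hif-1, aha-1, was not bound. The aha-1 gene encodes the ARNT relative that pairs with HIF-1 and with AHR-1. A pooled relaxed peak 224 bp upstream of its start ranked 4174 (score 26), and was matched in replicate 2 (219 bp upstream, rank 4070, score 23.4). The strongest replicate 1 peak in the window lay 401 bp downstream and ranked 8308 (score 4.78). The nearest IDR summit was 3862 bp downstream of the start and 107 bp from mrpl-34 (score 47.1). The aryl hydrocarbon receptor gene ahr-1 was 23824 bp from a summit in an intron of swah-1. For cky-1, a relative of vertebrate NPAS4, the distance was 8244 bp, to a summit 172 bp from mrpl-49, and for hlh-34 it was 28656 bp. These last 3 genes had no relaxed peak in the window in any list.

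The SREBP gene sbp-1, a regulator of lipid synthesis, lay 24520 bp from a summit in an intron of bed-2 (score 39.3), and had only a replicate 1 peak of rank 26920 in its window. The remaining genes hlh-10, hlh-15 and hlh-33 were 8409, 19336 and 4375 bp from a summit. The summit beside hlh-33 was 121 bp from the start of ddp-1.

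Which genes were called depended on the window and on the list. From 1000 bp upstream to 250 bp downstream the same 4 genes were bound, beside 9.3% of protein-coding genes. A window to the gene end or at any transcript start added hlh-30, for 5 genes (beside 15.1% and 13.7%), and counting any base of a peak added hlh-13, also for 5 (beside 13.2%). A reach of 5000 bp upstream gave 10 genes (26.3%, beside 19.7%), the added ones being hlh-4, hlh-6, hlh-13, hlh-27, lin-32 and ref-1. Of these summits all but that of ref-1 were closer to another gene. Peaks among the strongest of both replicates left hif-1 and hlh-11 (5.26%, beside 6.03%), and the 1000 strongest IDR peaks left hif-1 (2.63%, beside 3.73%). By nearest start the members called were 3 with replicate 1 (beside 7.17%), 4 with replicate 2 (beside 8.9%), 1 with the 1000 strongest peaks (beside 2.64%) and 4 when starts of all biotypes competed (beside 6.91%).

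Weak signal in the windows was common and was read only as a description, since the relaxed lists include background. Of the 38 genes 24 had a pooled relaxed summit in the window (63.2%, beside 51.5% of all protein-coding genes). Among the 20 of these that were not bound, the strongest score ranged from 8.14 at lin-22 to 26 at aha-1, with a median of 11.9. After aha-1 and hlh-2 came cnd-1, with a score of 18.8 at a summit 480 bp downstream of the start, also found in replicate 2 (rank 4893) and not in replicate 1. A relaxed summit in the window was present for 19 genes in replicate 1, for 20 in replicate 2 and for 12 in both. For 10 genes none of the 3 relaxed lists had one. The matching shares of all protein-coding genes were not computed for the replicate lists. These counts are therefore not read as a trait of the bHLH genes.

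**Figure D4:**
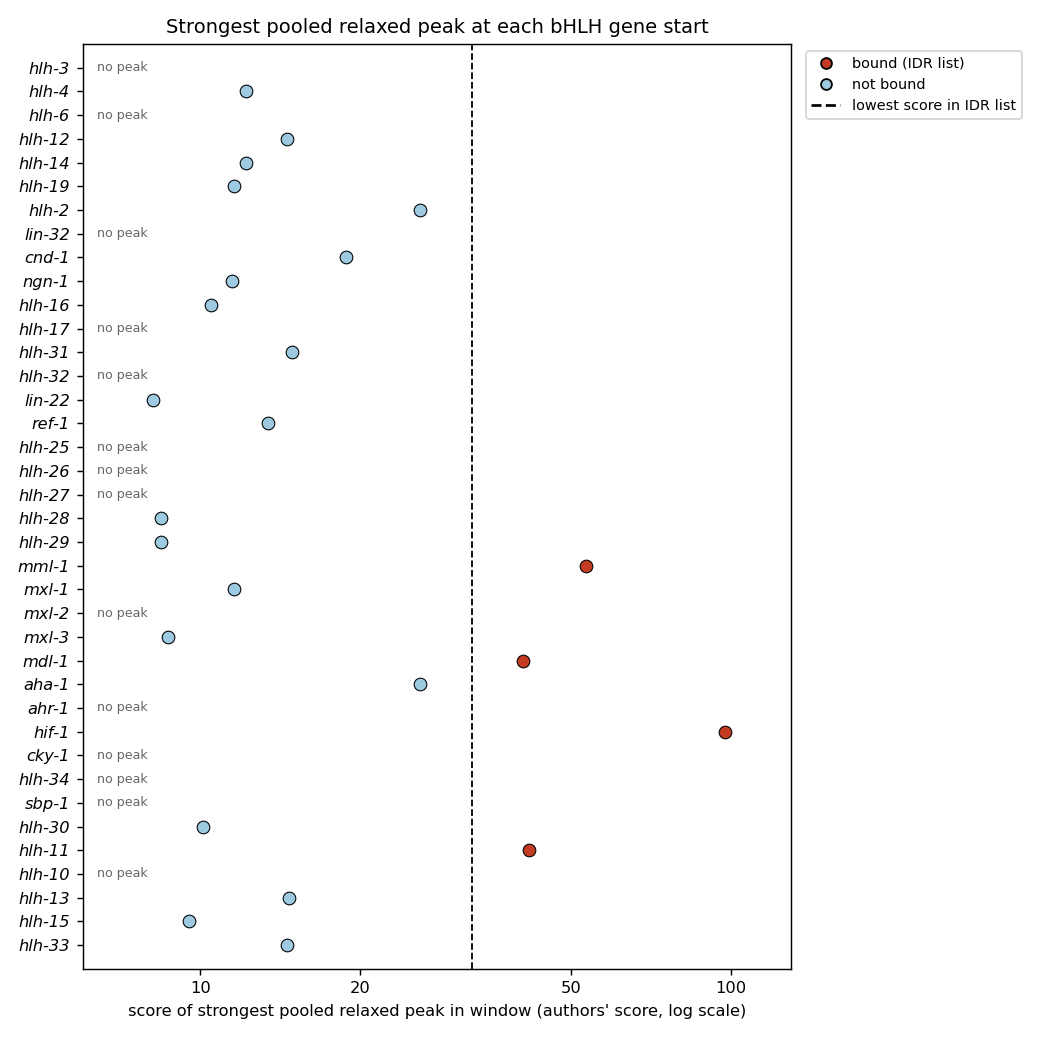
Authors' score (log scale) of the strongest pooled relaxed peak with its summit in the window of each of the 38 genes; red marks bound genes, blue the others, and the dashed line is the lowest score of the IDR list, 32.5. The 4 bound genes lie between 40.5 and 97.6, the other 20 genes with a peak between 8.14 and 26, and 14 genes have none.

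Genes that work with the members were counted by the same rule. In the hypoxia pathway 3 of 5 genes other than hif-1 were bound, namely egl-9, the oxygen sensor that marks HIF-1 for breakdown (1762 bp upstream, score 59.3), cysl-1 (321 bp upstream, score 104) and swan-1 (2 summits, the stronger 1439 bp upstream, score 91.4). The genes vhl-1 and rhy-1 were not. In the Notch pathway, which acts upstream of REF-1 family genes, the ligand genes lag-2 (348 bp upstream, score 81.2) and apx-1 (900 bp upstream, score 56.5) were bound, and the receptor genes lin-12 and glp-1 and the genes lag-1 and sel-8 were not. Around sbp-1 1 of 5 genes was bound, the Mediator subunit gene mdt-15 (1643 bp upstream, score 116), and scp-1, fat-5, fat-6 and fat-7 were not. All these counts stand beside 12.8% of all protein-coding genes, and the lists are too short for a share to be read against it. The lists were also chosen with earlier results of these data known.

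Among other transcription factor genes, 6 of 63 homeobox genes named ceh (9.52%) and 13 of 269 nuclear hormone receptor genes named nhr (4.83%) were bound, beside 10.5% of the 38 bHLH genes. These differences were not tested. Of the bHLH genes outside the 38, hlh-1 was bound and hlh-8 and hnd-1 were not.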

How the data were processed

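HLH-1 was mapped by ChIP-seq in 2 biological replicates of whole embryos. Per the deposited manifest, peaks were called per replicate and on the pooled alignments, each against a control, as relaxed lists, from which the IDR list was derived. The peak value used is the score the authors deposited. No source used here names the aligner, the peak caller or the IDR threshold. The control was not analysed here.

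Lists on ce11 were used with Ensembl release 115 genes and RefSeq sequence of WBcel235, the same build. Coordinates are 1-based. Peaks off the nuclear chromosomes were left out (1 pooled, 25 replicate peaks). Summits, windows, E-boxes and repeated 32 bp words were computed in Python 3.11.15 with numpy 2.4.6, and replicate peaks were matched at an overlap of at least 1 bp. Window calls were checked on simulated summits. No test was made over the members: counts stand beside those over all protein-coding genes. The members, classes and lists were chosen with earlier results of these data known. All 38 members are named, with the genes nearest to their summits. With 2 replicates in 1 group, no error could be given for a score, and replicate values are printed instead.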

Additional observations from a re-analysis of the deposited data

How the results depend on the processing

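Alternatives were other peak lists, distances, gene starts and sequence windows. The count of 4 bound genes was the same with a window of 1000 bp upstream to 250 bp downstream (9.3% of protein-coding genes). It was 5 with windows to the gene end or with any transcript start (both adding hlh-30, beside 15.1% and 13.7%). It was also 5 with any base of the peak (adding hlh-13, beside 13.2%). It fell to 2 with the 1567 IDR peaks found among the strongest of both replicates (hif-1 and hlh-11, beside 6.03%) and to 1 with the 1000 strongest peaks (hif-1, beside 3.73%; also 1 by nearest start, beside 2.64%). It was 10 with a window of 5000 bp upstream to 500 bp downstream, beside 19.7%, and 24 with the pooled relaxed list, beside 51.5%. With replicate 1 alone it was 3, beside 10.1% by the window and 7.17% by nearest start. With replicate 2 alone it was 4, beside 12.9% and 8.9%. By nearest start among genes of all biotypes it was 4, beside 6.91%. The median distance of 9758.5 bp (13491 bp over all protein-coding genes) was 9120.5 to 9667 bp with a single replicate (12903 and 13204 bp over all protein-coding genes with replicates 1 and 2), and 32763.5 bp with the 1000 strongest peaks (43490 bp). Of the 6 summits at bound genes 2 (33.3%) had at least 1 of the 3 searched E-boxes within 25, 50 and 100 bp. The shares of all IDR summits were 26.2%, 38.8% and 48.2%. A share of 6 summits is too coarse to be read as above or below these. In flanks 500 bp to the right, of 50 bp on either side, 0 of the 6 had such an E-box, beside 9.22%. Only the construction of each setting (fewer or more peaks, longer windows) is known here, and read depth, which limits the weaker peaks, is not. No paired analysis was possible because there is 1 group.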
